A study of Mus musculus with 3 samples.

Results

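The lymphatic endothelial cells of the mouse gallbladder wall were described from single-cell 3′ gene expression libraries made in a study of ingested nanoplastics. They were chosen by the genes detected in each cell barcode: at least 300 genes and at most 20% mitochondrial unique molecular identifiers (UMIs, each counted as 1 RNA molecule), at least 3 of the 6 markers Prox1, Mmrn1, Reln, Ccl21a, Flt4 and Lyve1, and at least 1 UMI of the vessel genes Pecam1, Cdh5 or Egfl7. Barcodes with any UMI of the leukocyte gene Ptprc, or with Epcam, Krt8, Krt18 and Krt19 together at 6000 counts per 1000000 UMIs (CPM) or more, were left out. In all, 212 of 26017 kept barcodes met the rule (27700 before the filters), 18 in library 1, 16 in library 2 and 178 in library 3.

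Each of the 3 libraries came from 10 pooled gallbladders of male C57BL/6 mice, dissociated with trypsin and passed through a cell strainer. The groups in the labels were a control given the vehicle by oral gavage for 6 weeks, mice given nanoplastics for 3 weeks and mice given nanoplastics for 6 weeks. Their age was not given in the sources used here. The library numbers in the barcodes could not be tied to these groups, so no comparison between groups was made and each library is given by its number. The libraries held 5643, 11827 and 10230 barcodes and 72943584, 121349261 and 58172348 UMIs in libraries 1, 2 and 3, with a median of 10703.5, 9666 and 2323 UMIs in kept barcodes, so library 3 was the shallowest per barcode.

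Lymphatic vessels take up fluid, proteins, lipids and immune cells from tissue and return them to the blood. Blind-ended initial vessels, whose cells are joined by discontinuous junctions, drain into collecting vessels that carry valves. PROX1 sets and maintains lymphatic identity, VEGF-C acting through the receptor VEGFR3 (encoded by Flt4) drives lymphatic growth, and the chemokine CCL21 guides dendritic cells that carry its receptor CCR7 into the vessels. In the gallbladder wall, lymphatic vessels lie beside blood vessels, fibroblasts, smooth muscle and an epithelium that faces the bile.

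The lymphatic barcodes made up 0.815% of kept barcodes (0.709 to 0.932, exact binomial 95% interval), with 0.409% in library 1, 0.138% in library 2 and 1.77% in library 3. Among 1146 endothelial barcodes they made up 18.5% (16.3 to 20.9), with 12.1%, 7.31% and 22.9% in libraries 1, 2 and 3. Without library 3, which gave most of the members, the share of kept barcodes was 0.213%, and without library 2 it was 1.36%. The members held 1688974 UMIs, with medians of 6127.5, 1831.5 and 3611 UMIs per barcode in libraries 1, 2 and 3 and a range from 523 to 96987. The deepest member, in library 3, held 5.74% of these UMIs. Levels below are CPM of UMIs summed over barcodes, with exact Poisson 95% intervals in brackets. All intervals cover counting error only, and the values of libraries 1 and 2 rest on few barcodes.

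The 6 markers were high in every library by the choice of the cells, so their levels are a description. Mmrn1, which encodes a large secreted glycoprotein, had the highest level of the 6, at 3288 CPM (3202 to 3375), with 4485, 3974 and 3172 CPM in the libraries by number. Lyve1, a hyaluronan receptor, stood at 1532 CPM (1473 to 1592), with 4065, 3357 and 1277 CPM. Ccl21a stood at 1264 CPM (1211 to 1319), with 4783, 4887 and 882 CPM. Both were far lower in library 3 than in the other 2 libraries. The intervals do not cover the spread between barcodes or between libraries. Of the 73 members with only 3 or 4 markers, 71 were in library 3, and these 73 had Lyve1 at 114 and Ccl21a at 59.1 CPM. Reln, which encodes the secreted protein reelin, had 1573, 1654 and 892 CPM, Prox1 1057, 864 and 761 CPM and Flt4 1041, 1185 and 555 CPM in libraries 1, 2 and 3. Prox1 had the smallest range over the libraries among these 3. Prox1 (ENSMUSG00000010175) lies at chr1:190118035-190170714 on the minus strand and Mmrn1 at chr6:60924976-60989378 on the plus strand (GRCm38, GENCODE M21, both protein-coding). At least 1 UMI of the vessel genes was also part of the rule, so their presence follows from the choice. Pecam1 stood at 486 CPM (453 to 519.9), Cdh5 at 438 CPM (407 to 471) and Egfl7 at 387 CPM (358 to 417). In blood endothelial barcodes, chosen with the same requirement, these genes stood at 1069, 878 and 823 CPM.

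**Figure D1:**
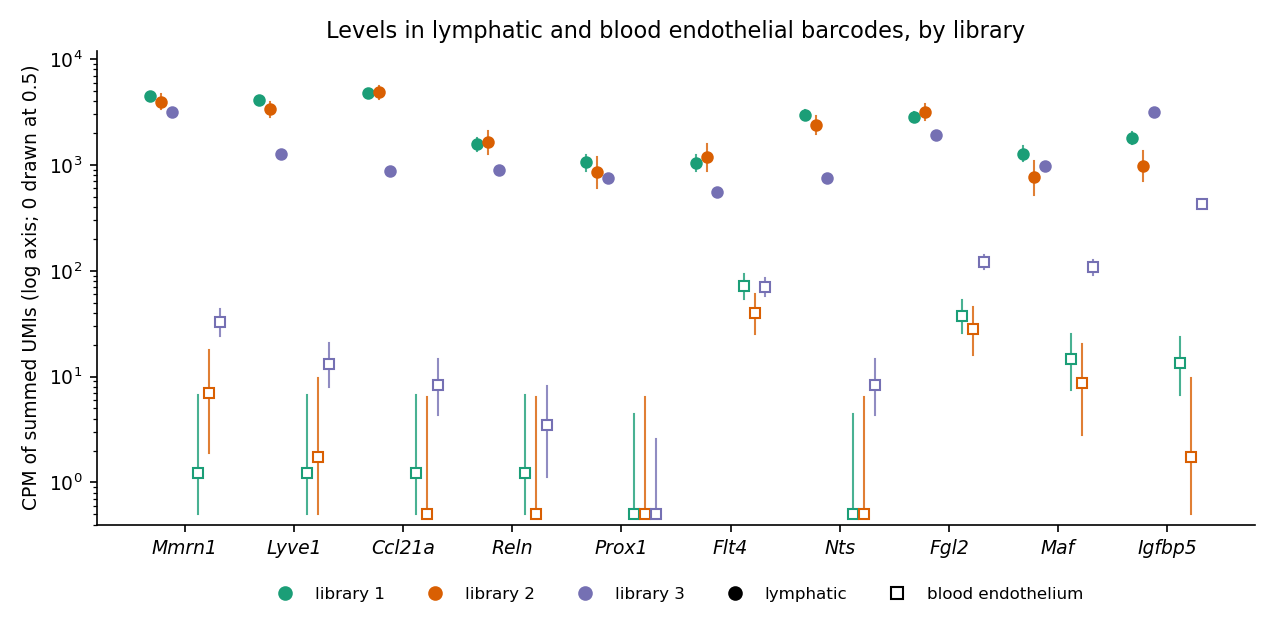
Levels (CPM of summed UMIs, log axis, 0 drawn at 0.5) of the 6 markers and 4 further genes in lymphatic (filled circles) and blood endothelial barcodes (open squares) of libraries 1, 2 and 3, with exact Poisson 95% intervals. Lyve1, Ccl21a and Nts were lower and Igfbp5 higher in library 3 than in libraries 1 and 2, and each gene was higher in lymphatic than in blood endothelial barcodes of the same library.

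Lyve1 and Ccl21a did not mark all members. Lyve1 was detected in 94.4%, 100% and 64.6% of members of libraries 1, 2 and 3, and Ccl21a in 88.9%, 87.5% and 61.8%. After each barcode was thinned to 1000 UMIs, which left out 21 shallower members, the shares were 94.1%, 92.9% and 50.6% for Lyve1 and 76.5%, 85.7% and 43.1% for Ccl21a. In library 3, 90 of 178 members held both genes and 43 held neither. Members with neither could meet the rule only with at least 3 of Prox1, Mmrn1, Reln and Flt4. Their levels of these genes are therefore partly set by the choice. Those 43 had Prox1 at 743 CPM and Mmrn1 at 1613 CPM, against 790.3 and 4277 CPM in the 90 with both. They also held more RNA of 2 genes of other cells. Spp1, which encodes osteopontin, stood at 1559.6 against 332 CPM, and Ttr, transthyretin, a hepatocyte product, at 1926 against 286 CPM. Barcodes with Ptprc should lack both genes apart from Lyve1 in some macrophages. In these, Lyve1 was detected in 3.71% and Ccl21a in 1.33%, at a median of 2372 UMIs against 3576.5 in the members. In libraries 1, 2 and 3 the shares were 4.44%, 0.568% and 6.53% for Lyve1 and 0.648%, 0.207% and 2.87% for Ccl21a, highest in library 3.

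The number of markers split the members. With 5 or 6 of the 6 markers there were 139 members, 17, 15 and 107 in libraries 1, 2 and 3, and with 3 or 4 there were 73, of which 71 were in library 3. This split was chosen after the values were seen. The epithelial marker list summed to 911 CPM in members with 5 or 6 markers and to 3033 CPM in those with 3 or 4, and the hepatocyte list to 191 and 1715 CPM, nearly all of it Ttr. Other lists ran the opposite way: fibroblast markers summed to 1061 CPM in members with 5 or 6 markers against 360 CPM in the others, muscle markers to 900.5 against 279 CPM, mesothelium markers to 117 against 31.4 CPM and blood endothelium markers to 677 against 522 CPM. Just inside the limit, the 30 barcodes with 3 markers had Mmrn1 at 638, Prox1 at 417, the blood vessel receptor gene Flt1 at 136 and the epithelial gene Dmbt1 at 8366 CPM. Just outside it, the 92 with 2 markers, which otherwise met the rule, had Mmrn1 at 43.3, Prox1 at 47.5, Flt1 at 241 and Dmbt1 at 10968 CPM. Values for members with 5 or 6 markers are therefore given beside some results, and not beside every gene that differed with this split. Fgl2, for example, stood at 2677 CPM in members with 5 or 6 markers against 633 CPM in the others. Pard6g stood at 513 against 122 CPM and Tgfb2 at 422 against 75.7 CPM, while Plat went the other way, at 354 against 419 CPM. In members with 5 or 6 markers, Lyve1 stood at 4247, 3225 and 1915 CPM in libraries 1, 2 and 3. Ccl21a stood at 4997, 4787 and 1337 CPM there. Both genes are among the 6 markers that made the split, so these levels are partly set by it. Mmrn1 and Prox1 are among the 6 as well. Their levels in the barcodes with 3 and with 2 markers are thus also partly set by the number of markers.

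Markers of immune cells and of liver sinusoidal endothelium were near 0 in the members, and those of several other cell types were not. T cell, B cell and neutrophil lists summed to 2.37, 2.37 and 16.0 CPM, and the macrophage list to 41.4 CPM. The rule left out barcodes with Ptprc, so the low immune sums are partly set by the choice. It also limited Epcam, Krt8, Krt18 and Krt19, which are part of the epithelial list. Markers of liver sinusoidal endothelium, which also carries Lyve1, summed to 15.4 CPM, with Clec4g at 0. The blood endothelium list summed to 628 CPM, led by Emcn at 407 CPM, against 4765 CPM in blood endothelial barcodes. Those barcodes were chosen by at least 2 of the 5 genes of this list, so that contrast was set by the choice. Mesothelium markers summed to 89.4 CPM against 86.9 CPM there, and pericyte markers to 49.1 against 265 CPM. Fibroblast markers summed to 836 CPM (113, 98.7 and 914 CPM in libraries 1, 2 and 3), led by Dcn at 464 CPM, and muscle markers to 701 CPM (258, 24.7 and 755 CPM). The epithelial list summed to 387, 617 and 1715 CPM and the hepatocyte list to 16.1, 24.7 and 751 CPM, so the fibroblast, muscle, epithelial and hepatocyte lists were highest in library 3. The part of this RNA in the results was not tested. Doublet scoring marked 6 members, all in library 3, and no member's barcode sequence occurred in another library. The 6 lymphatic markers summed to 8435 CPM in the members, against 97.1 CPM in blood endothelial barcodes, and to 11270.1 CPM in the 139 members with 5 or 6 markers and 2431 CPM in the 73 others. These markers chose the members, so their sums do not test the label.

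The comparison class was blood endothelium, taken by the same filters with at least 2 of Flt1, Emcn, Plvap, Vwf and Selp, no Prox1 and fewer than 3 of the lymphatic markers. It had 934 barcodes, 131, 203 and 600 in libraries 1, 2 and 3, with a median of 1910.5 UMIs against 3576.5 in the members. Of these, 83 were venous-type, with at least 2 of Vwf, Selp and Ackr1. A gene was counted as higher or lower where the summed levels differed at least 2-fold after adding 10 CPM, in the same direction in library 3, the only library with 20 or more barcodes of each class. The libraries are not replicates of a condition, so no p-value was computed. Of 9935 genes with at least 20 UMIs in either class, 435 were higher in lymphatic barcodes (4.38%) and 594 lower (5.98%), together 10.4%. In what follows, 3 levels given in a row are those of libraries 1, 2 and 3 in that order, first in the members and then in blood endothelium. The direction was the same in all 3 libraries for 326 of the 435 and 562 of the 594. Library 3 gave 90.3% of the members' UMIs but 50.7% of those of blood endothelium, so a summed ratio also holds differences between libraries. Within library 3 alone, 305 of the 435 and 466 of the 594 differed at least 2-fold. Of the 149 genes counted as higher or lower among those of the lists and the rule for names, 10 higher and 15 lower were under 2-fold there, and this is said beside each such gene that is described.

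The genes that differed most from blood endothelium, outside the rule, included genes of secreted and guidance proteins. Nts, which encodes the gut peptide neurotensin, led them at 963 CPM (917 to 1011), with 2993, 2394 and 760.3 CPM and 4.24 CPM in blood endothelium. It was high in every library and lower in library 3, and was detected in 59.0% of members. Fgl2, encoding a fibrinogen-like protein, stood at 2839, 3184 and 1924 CPM against 37.7, 27.9 and 122 CPM in blood endothelium. Cp, encoding the copper oxidase ceruloplasmin, stood at 742, 765 and 979 CPM against 35.0 CPM. Both were higher in every library. Sema3d and Sema3a encode secreted semaphorins, which repel or guide growing axons and vessels. Sema3d stood at 565, 419.6 and 409 CPM against 9.54 CPM in blood endothelium, and Sema3a at 186, 173 and 113 CPM against 3.89 CPM. Ntn1, encoding the guidance protein netrin 1, stood at 476, 321 and 613 CPM against 35.0 CPM. All 3 guidance genes were higher in each library.

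Other genes among the 20 with the largest ratios encode membrane, adaptor and matrix proteins. Pard6g, a cell polarity adaptor, stood at 387 CPM (358 to 418) against 2.12 CPM, and F2rl1, the protease-activated receptor 2, at 213 CPM (191 to 236) against 12 CPM. Tnc, the matrix protein tenascin C, stood at 436, 74.0 and 126 CPM, and was highest in library 1. Slc45a3, Fxyd6, Dtx1, Nsg1, Wipf3, Pcsk6, Pkhd1l1 and Olfm1 ranged from 110.1 to 407 CPM, against 1.41 to 19.4 CPM in blood endothelium. The direction was the same in all 3 libraries for 19 of the 20; the other was Foxp2, at 0 in library 2 in both classes.

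The 12 genes with the smallest ratios included capillary, interferon and haemoglobin genes. Rgcc stood at 24.9 CPM (17.9 to 33.6) against 1257 CPM in blood endothelium, Ly6c1 at 34.9 CPM (26.6 to 45.1) against 1275 CPM and Cyp1a1, an enzyme induced by the aryl hydrocarbon receptor, at 32.6 CPM (24.5 to 42.4) against 1143 CPM. All 3 were at most 34.9 CPM in the members, and were lower in venous-type (121, 501 and 377 CPM) than in other blood endothelium. Cyp26b1, which breaks down retinoic acid, stood at 2.37 CPM (0.645 to 6.06) against 289.6 CPM. The haemoglobin genes Hbb-bs, Hbb-bt and Hba-a1 came from few blood endothelial barcodes: Hbb-bs was detected in 1.71% of them, with 1.22, 2679 and 317 CPM.

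**Figure D2:**
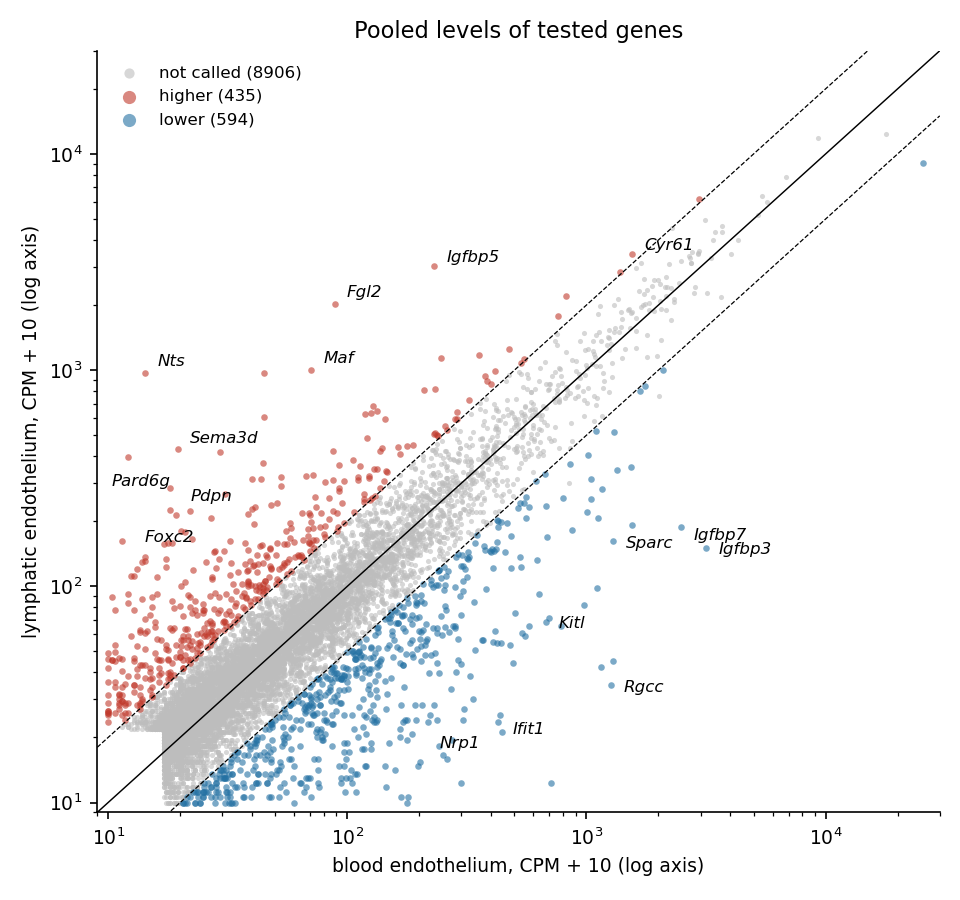
Level of each tested gene in lymphatic barcodes against blood endothelium (CPM + 10, log axes), with 435 genes higher in red, 594 lower in blue, and dashed lines at 2-fold. Nts, Fgl2 and Igfbp5 lay far above the diagonal, and Igfbp3, Rgcc and Ifit1 far below it.

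Transcription factors of lymphatic and endothelial fate differed in both directions. Of 22 tested, 6 were higher (27.3% against 4.38% of all tested genes) and 4 lower (18.2% against 5.98%). Their median log2 ratio was 0.38 against 0.03 over all tested genes. Maf, a large leucine zipper factor, stood at 1283, 765 and 979 CPM against 14.6, 8.72 and 108 CPM in blood endothelium. Nr2f2, which sets venous identity and acts with PROX1, stood at 532, 346 and 842 CPM against 109, 124 and 329 CPM. Both were higher in every library. Tbx1, Nfatc1, Foxc1 and Foxc2 were also higher, at 169, 171, 95.3 and 124 CPM against 10.9, 45.6, 35.3 and 7.42 CPM, though Foxc1 stood at 106 CPM in venous-type blood endothelium and its ratio turned without library 3, at 24.3 against 31.5 CPM. Sox17, an arterial factor, and its relative Sox7 were lower, at 49.7 and 85.9 CPM against 239 and 243 CPM. Erg was lower as well. Within library 3 alone, Sox7 and Erg were under 2-fold, and only Sox17 of the 4 counted as lower passed. Sox18, which switches on Prox1 in the embryo, was not counted as lower, at 137 CPM (120.3 to 156) against 232 CPM. Klf2 and Klf4, which respond to flow, stood at 2119 and 1994 CPM against 1339 and 1294 CPM in the pooled sums, short of the 2-fold limit. By library, Klf2 stood at 960, 1432 and 2232 CPM against 555, 445 and 2146 CPM. Klf4 stood at 2863.5, 1999 and 1923 CPM against 1199, 802 and 1545 CPM. Both were higher in each library, and least so in library 3.

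The VEGF-C pathway showed its receptors in the members and its ligand elsewhere. Flt4, a rule gene, stood at 606 CPM (569 to 644) against 64.6 CPM in blood endothelium. Kdr, the receptor VEGFR2, stood at 709.8, 740.4 and 757 CPM, against 808, 640 and 1382 CPM. It was higher in the members in library 2 only. Nrp2, the lymphatic co-receptor, stood at 516, 494 and 226 CPM, against 261, 286 and 139 CPM, and was higher in each library. In the pooled sums Kdr and Nrp2 did not reach the limit in either direction. Nrp1, the co-receptor of blood vessels, was lower in the members in every library, at 0, 0 and 12.5 CPM against 447, 368 and 452 CPM. The ligand Vegfc was nearly undetected in the members, with 5 UMIs, or 2.96 CPM (0.961 to 6.91), against 39.6 CPM in fibroblasts and 41.3 CPM in venous-type blood endothelium. Vegfd stood at 2.37 CPM (0.645 to 6.06) in the members and 26.7 CPM in fibroblasts. Of the proteins that process VEGF-C, Ccbe1 stood at 1.18 CPM in the members and 14.4 CPM in fibroblasts, and Adamts3 had no UMI in the members. Pgf, a ligand of VEGFR1, was higher in the members, at 492, 370.2 and 28.2 CPM, and in members with 5 or 6 markers it stood at 514, 384 and 37.4 CPM. It was thus high in libraries 1 and 2 and low in library 3. Itga9, an integrin of valve formation, was higher at 139 CPM (121 to 157) against 37.4 CPM. In all, 2 of 12 tested members of the pathway list were higher (Pgf and Itga9) and 3 lower (Nrp1, Vegfc and Spred1). These are 16.7% and 25% of the list, against 4.38% and 5.98% of all tested genes.

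In the angiopoietin pathway, the ligand Angpt2 was higher in the members, at 186, 123 and 66.9 CPM against 36.5, 38.4 and 8.36 CPM. Tek, the receptor TIE2, was lower at 58.6 CPM (47.6 to 71.4) against 141 CPM, and Tie1 was not counted as lower, at 181 CPM (161 to 202) against 219 CPM. Ptprb, the phosphatase VE-PTP that restrains TIE2, was lower at 339, 247 and 185 CPM against 1204, 1169.7 and 1018 CPM. Its level in blood endothelium was above that in the members in every library. Of 5 tested genes, 1 was higher (20% against 4.38% of all tested genes) and 2 lower (40% against 5.98%). Of the lower ones, Tek was under 2-fold within library 3. Angpt1, the activating ligand, stood at 4.74 CPM in the members and 35.0 CPM in fibroblasts.

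Genes of initial vessels were present beside valve genes. Pdpn, which encodes the platelet-activating membrane protein podoplanin, stood at 371, 469 and 176 CPM, against 15.8, 3.49 and 23.0 CPM in blood endothelium. Stab1, a scavenger receptor, stood at 581, 716 and 391 CPM, against 65.6, 61.0 and 89.9 CPM. Both were higher in every library. They were the 2 of 5 tested genes of initial vessels that were higher (40% against 4.38% of all tested genes). Piezo2 and Mrc1 did not reach the limit, at 44.4 and 71.0 CPM. Pdpn was not particular to lymphatic cells: mesothelium held 426 CPM and fibroblasts 171 CPM.

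Of 16 tested genes of collecting vessels and valves, 8 were higher (50% against 4.38% of all tested genes) and none lower. Their median log2 ratio was 1.16. Foxc2, a factor needed for valves, stood at 24.2, 49.4 and 134 CPM, against 7.42 CPM in blood endothelium. Fn1, whose product is laid down in valve leaflets, stood at 177, 222 and 367 CPM against 60.8, 62.8 and 143 CPM. Cldn11, found at valves, stood at 8.07, 0 and 40.0 CPM, with 1.06 CPM in blood endothelium. Foxc2 and Cldn11 were highest in library 3. Foxp2, Itga9, Nfatc1 and Sema3a were also higher. Gja4, Gja1, Efnb2 and Ephb4 did not reach the limit, at 32.0, 304, 244 and 179 CPM. Without library 3, 5 of the list were higher and 2 lower. Over all genes, 476 were then higher and 1077 lower, against 435 and 594 with the main settings.

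At least 2 of the valve genes Cldn11, Foxc2 and Gja4 were detected in 30 of 212 members (14.2%, 9.76 to 19.6), 0 of 18 in library 1, 1 of 16 in library 2 and 29 of 178 in library 3. The exact binomial interval of the 0 of 18 reaches 18.5%. After thinning to 1000 UMIs the share was 2.62% (0.855 to 6.00), so it depended on depth. The 29 barcodes of library 3 had a median of 9712 UMIs, against 3103 in the other 149. Lyve1 stood at 659 CPM (587 to 737) in the 29 and 1549.6 CPM in the rest, Ccl21a at 513 against 1044 CPM and Reln at 583 against 1028 CPM. Prox1 stood at 1161 against 585 CPM, Foxp2 at 234 against 92.6 CPM and Cldn5 at 753 against 315 CPM. Pdpn and Stab1 differed little, at 195 against 168 CPM and 401 against 386 CPM. The barcodes with valve genes were thus lower in Lyve1, Ccl21a and Reln, not in Pdpn or Stab1, and higher in Prox1. The rest was not limited to members with 5 or 6 markers. Over all libraries, Prox1 stood at 941 CPM in members with 5 or 6 markers and 456 CPM in the others, and Cldn5 at 554 and 305 CPM. The part of the marker number and of depth in these differences was not tested. Slc41a1, a magnesium transporter gene, stood at 553 against 96.4 CPM, and Klf2 at 3189.8 against 1809 CPM. Flt4 and Nr2f2 differed little, at 536 against 563 CPM and 800.1 against 859.9 CPM. Without the deepest barcode of the 29, Lyve1 stood at 482 and Prox1 at 1387 CPM. The barcodes were chosen by detected genes and no test was made.

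**Figure D3:**
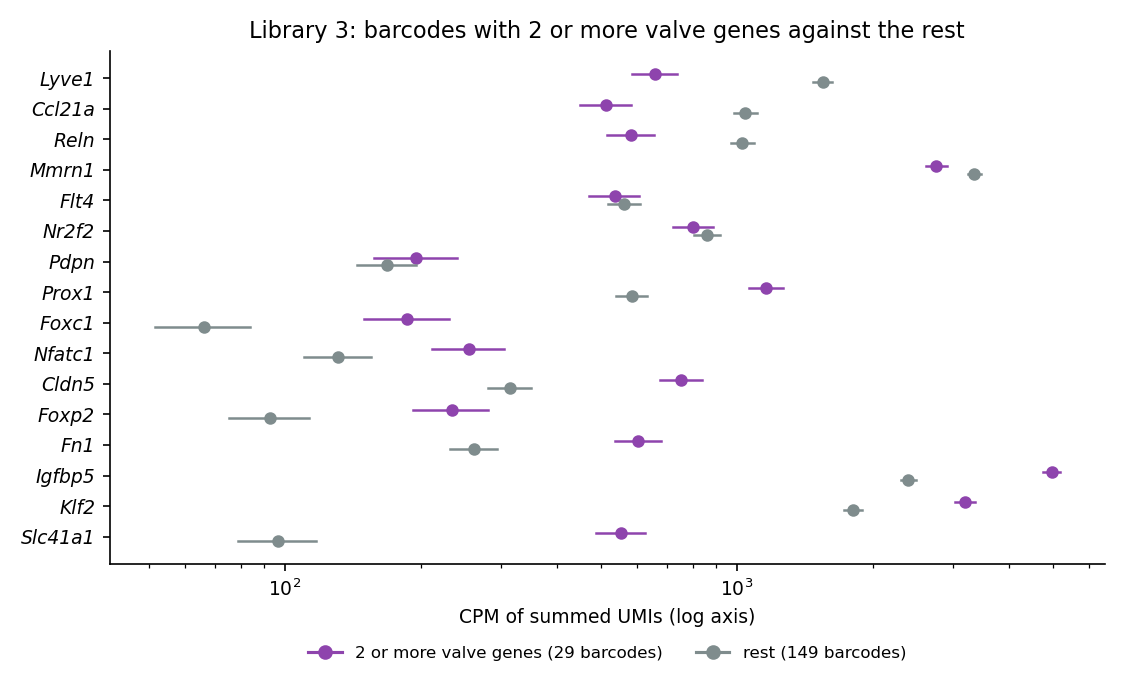
Levels (CPM of summed UMIs, log axis) with exact Poisson 95% intervals in the 29 lymphatic barcodes of library 3 with at least 2 valve genes (purple) and the other 149 (grey). Lyve1, Ccl21a and Reln lay lower, and Prox1, Cldn5, Foxp2 and Slc41a1 higher, in the barcodes with valve genes.

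Junction genes differed gene by gene. Of 20 tested, 3 were higher (15% against 4.38% of all tested genes) and 4 lower (20% against 5.98%). Cldn5, the tight junction claudin of endothelium, stood at 581, 1086 and 449 CPM against 132, 109.8 and 99.0 CPM in blood endothelium. Ctnna1 and Nectin2, of adherens junctions, were higher at 584 and 207 CPM against 279 and 80.2 CPM, with Ctnna1 under 2-fold within library 3. Jam2 was lower, at 0, 0 and 7.22 CPM against 278, 267 and 208 CPM, and Esam at 56.5, 0 and 57.1 CPM against 495, 516 and 623 CPM. Both encode adhesion molecules that leukocytes meet in blood vessel walls, and both were lower in every library. Jam3 and Gja5 were lower too, at 14.2 and 1.78 CPM. Ctnnb1 and F11r stood within the limit, at 579.6 and 471 CPM against 538 and 354 CPM.

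Basement membrane, which is thin or absent around initial lymphatic vessels, gave 3 genes higher and 4 lower of 18 tested. These are 16.7% and 22.2% of the list, against 4.38% and 5.98% of all tested genes. Sparc, encoding a collagen-binding matrix protein, stood at 72.6, 49.4 and 161 CPM against 1591, 1393 and 1059 CPM. Hspg2, the proteoglycan perlecan, stood at 139 against 408 CPM, and Col4a2, a collagen IV chain, at 178 against 417 CPM, just under 2-fold within library 3. Col4a1 stood at 1299, 642 and 350.3 CPM, against 1178, 814 and 660.1 CPM, and did not reach the limit; its level in library 1 was not below that of blood endothelium. Lama4 and Fbln5 were higher, at 147 and 148 CPM against 60.4 and 59.3 CPM, though Fbln5 stood at 153 CPM in venous-type blood endothelium. Emilin1, whose product anchors lymphatic cells to elastic fibres, stood at 35.5 CPM (27.1 to 45.7) against 13.1 CPM. It fell just short of the limit over all members.

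Ccl21a had the highest level of the chemokine genes listed in the members. Mouse Ccl21 has several near-identical gene copies, which 3′ reads may not separate. The Ccl21a row (ENSMUSG00000094686, chr4:42772860-42773993, minus strand, GRCm38, protein-coding) held 2135 UMIs in the members, the rows Ccl21b and Ccl21c held 0, and the row Gm21541 (ENSMUSG00000094065, chr4:41903610-41904743, plus strand) held 36. The transcripts of Ccl21a and Gm21541 in the reference annotation are 870 bases long and 99.3% identical, differing at 6 positions, of which 2 lie in the coding part of 402 bases. The windows of 60 bases around those 2 are shown, transcript positions 130 to 189 and 240 to 299, because they are the coding bases by which the copies differ; the differing base is in capitals.
Ccl21a, positions 130 to 189: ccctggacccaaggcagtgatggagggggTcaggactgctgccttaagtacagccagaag
Gm21541, positions 130 to 189: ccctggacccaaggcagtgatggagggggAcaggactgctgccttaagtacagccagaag
Ccl21a, positions 240 to 299: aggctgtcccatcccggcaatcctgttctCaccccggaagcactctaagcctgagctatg
Gm21541, positions 240 to 299: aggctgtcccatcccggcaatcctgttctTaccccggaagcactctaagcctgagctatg
Only reads that cover one of the 6 positions can tell the copies apart, so the division of UMIs between the 2 rows is uncertain. How the authors' counting treated reads shared by both copies is not given in the sources used here.

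The promoters of Ccl21a and Nts are shown as examples, Ccl21a for the chemokine of the rule and Nts for the gene with the largest difference outside the rule. Sequences are the 250 bases before the start in RefSeq for GRCm38.p6, 5′ to 3′ on the gene's strand. Capitals mark matches, on either strand, to AGGAAG, a core letter sequence of ETS factor sites, AACAAT, one of SOX factor sites, and TATAAA, the TATA box. The Ccl21a window is chr4:42773992-42774241 and the Nts window chr10:102490419-102490668, both on the minus strand.
Ccl21a: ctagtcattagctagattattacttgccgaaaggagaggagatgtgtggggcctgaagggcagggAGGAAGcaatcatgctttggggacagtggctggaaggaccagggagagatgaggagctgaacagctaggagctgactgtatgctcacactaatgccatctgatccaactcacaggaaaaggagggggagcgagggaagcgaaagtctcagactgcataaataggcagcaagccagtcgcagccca
Nts: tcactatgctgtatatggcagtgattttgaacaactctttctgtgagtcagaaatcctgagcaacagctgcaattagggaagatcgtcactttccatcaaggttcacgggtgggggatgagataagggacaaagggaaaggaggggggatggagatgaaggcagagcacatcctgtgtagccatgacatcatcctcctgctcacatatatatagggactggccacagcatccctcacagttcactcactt
The Ccl21a window has AGGAAG at position -185, counted from the start, and the Nts window has none of the 3. Among 32851 promoters of the same length, 29.5% hold AGGAAG, 9.42% AACAAT and 12.4% TATAAA. The matches are letters in a window and say nothing of binding.

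Of 22 tested genes of chemokines and leukocyte traffic, 4 were higher (18.2% against 4.38% of all tested genes) and 8 lower (36.4% against 5.98%). The receptor of CCL21, Ccr7, had 1 UMI in the members, against 136 CPM in barcodes with Ptprc, of which 9.14% held it. Ackr2, a receptor that removes inflammatory chemokines, stood at 145, 173 and 23.0 CPM against 0.353 CPM in blood endothelium. Ccl2, a monocyte attractant, stood at 709.8, 494 and 64.9 CPM against 131, 15.7 and 29.3 CPM. Both were several times higher in libraries 1 and 2 than in library 3, also in members with 5 or 6 markers, where Ackr2 stood at 143, 179 and 35.4 CPM and Ccl2 at 741, 512 and 76.8 CPM. Il7, a survival factor of lymphocytes, stood at 48.4, 148 and 66.9 CPM against 3.65, 1.74 and 2.79 CPM. Its level in the members, 67.5 CPM (55.7 to 81.1), was the highest of the gated classes, with mesothelium next at 16.3 CPM, and its receptor gene Il7r stood at 224 CPM in barcodes with Ptprc. Alcam was counted as higher, at 128 CPM (111 to 146), but stood at 50.6 CPM in members with 5 or 6 markers, 292 CPM in the others and 52.6 CPM in blood endothelium. Within library 3 alone Alcam and Ccl2 were under 2-fold, as were Ccl5 and Sele. The genes lower were Cxcl12, Cx3cl1, Ccl5, Cxcl1, Cxcl10, Sele, Cd200 and Cd274. Cxcl10, a T cell attractant induced by interferon, stood at 8.07, 0 and 9.84 CPM against 248, 369.6 and 41.1 CPM. Sele, the selectin of activated venules, stood at 4.74 CPM (2.04 to 9.33) against 581 CPM in venous-type blood endothelium. Cd200, which restrains myeloid cells, stood at 137, 148 and 255 CPM against 645, 596 and 1439 CPM. Icam1 and Vcam1 did not reach the limit, at 171 and 82.9 CPM against 177 and 150.1 CPM.

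Interferon response genes were lower in the members. Of 21 tested, 16 were lower and none higher (76.2% against 5.98% of all tested genes), and the median log2 ratio was -1.90. Ifit1, an antiviral RNA-binding protein, stood at 24.2, 49.4 and 13.8 CPM against 476, 777 and 259 CPM in blood endothelium. Iigp1, an immunity-related GTPase, stood at 137, 74.0 and 84.6 CPM against 1470.4, 1739.7 and 630.2 CPM. Isg15, a ubiquitin-like modifier, stood at 161, 123 and 21.6 CPM against 585, 1260.3 and 112 CPM. All 3 were lower in each library, and in blood endothelium they were lowest in library 3. Rsad2, encoding viperin, stood at 8.07, 247 and 7.87 CPM against 433, 636 and 316 CPM, so its members' level was higher in library 2 than in the other libraries, on 16 barcodes. Irf1, a transcription factor of the response, stood at 242, 173 and 220.4 CPM against 465, 448 and 558 CPM. Those not counted as lower included Ifitm2, Ifitm3, Bst2 and Ifi27. Ifitm3, with 2008, 2443 and 604 CPM against 2875, 4246 and 595 CPM, was lower in libraries 1 and 2 only. Stat2 and Ifi35 were under 2-fold within library 3 alone, where the other 14 passed. The count was also 16 in members with 5 or 6 markers, 13 against venous-type blood endothelium alone and 15 without library 3. Over all genes, 603, 485 and 1077 were lower in these settings, against 594 with the main settings.

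**Figure D4:**
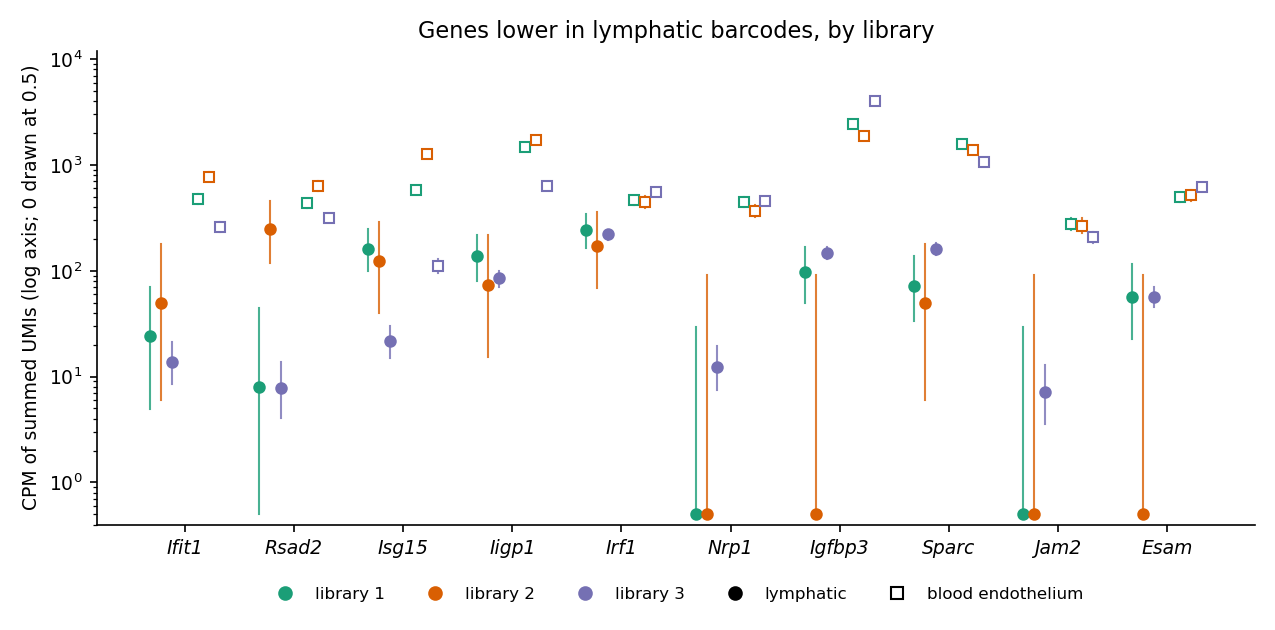
Levels (CPM of summed UMIs, log axis, 0 drawn at 0.5) of 10 genes lower in lymphatic (filled circles) than in blood endothelial barcodes (open squares), by library, with exact Poisson 95% intervals. Each gene was lower in lymphatic barcodes in all 3 libraries, with wide intervals in libraries 1 and 2.

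Antigen presentation genes were lower, the MHC class I chains by about the 2-fold limit. Of 13 tested, 6 were lower (46.2% against 5.98% of all tested genes) and none higher. B2m, the light chain of MHC class I, stood at 1299, 1012 and 969.5 CPM against 2434, 1987 and 1896 CPM in blood endothelium. The class I heavy chains H2-K1 and H2-D1 stood at 792 and 515 CPM against 1663 and 1087 CPM. Tap1, Psmb8 and Cd274, encoding the peptide transporter, an immunoproteasome subunit and PD-L1, stood at 30.2, 24.3 and 8.88 CPM against 109, 162 and 87.2 CPM. The class II genes Cd74, H2-Aa, H2-Ab1 and H2-Eb1 did not reach the limit, at 24.3 to 85.3 CPM in the members. B2m, H2-K1 and H2-D1 lay close to the limit, and B2m and H2-D1 were under it within library 3 alone. The count was 3 when the epithelial limit was set at 2000 CPM and 11 without library 3. Over all genes, 620 and 1077 were lower in these settings, against 594 with the main settings.

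Secreted factors differed in kind between the classes. Among insulin-like growth factor binding proteins, Igfbp5 stood at 1807, 987 and 3181 CPM against 13.4, 1.74 and 425 CPM in blood endothelium. It was also detected in 2.31%, 1.29% and 22.8% of barcodes with Ptprc in libraries 1, 2 and 3, so it was widest in library 3 outside endothelium too. Igfbp3 stood at 96.8, 0 and 148 CPM against 2429, 1895 and 4045 CPM, and Igfbp7 at 476, 370.2 and 148 CPM against 3953, 4222 and 937 CPM. The members thus had high Igfbp5 and low Igfbp3 and Igfbp7, while in blood endothelium the reverse held in each library. Igfbp4 did not reach the limit, at 349 against 318 CPM. Kitl, the ligand of KIT on mast cells and progenitors, stood at 0, 24.7 and 64.3 CPM against 602, 648 and 709.6 CPM, and Pdgfb, which recruits pericytes, at 95.9 against 294 CPM. Lbp, the lipopolysaccharide-binding protein, stood at 242, 296 and 215 CPM against 18.2, 24.4 and 39.0 CPM, and Ptn, pleiotrophin, at 119.6 against 45.9 CPM. Of 19 tested factors, 5 were higher (Igfbp5, Il7, Lbp, Ptn and Wnt2) and 4 lower (Igfbp3, Igfbp7, Kitl and Pdgfb). These are 26.3% and 21.1% of the list, against 4.38% and 5.98% of all tested genes. Ptn and Wnt2 were under 2-fold within library 3 alone.

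Genes of the TGF-β, BMP and Notch pathways differed in both directions. Tgfb2 stood at 694, 247 and 281 CPM against 21.9, 13.9 and 66.2 CPM, and Tgfb3 and Bmp6 at 53.3 and 49.1 CPM against 11.3 and 10.6 CPM. Ltbp4, which holds latent TGF-β in the matrix, stood at 1145, 1209 and 571 CPM against 329, 286 and 242 CPM. Acvrl1, the receptor ALK1, stood at 48.4, 49.4 and 51.2 CPM against 278, 299.8 and 167 CPM, and its co-receptor Eng at 282, 444 and 131 CPM against 568, 580.5 and 257 CPM. Bmpr2, the type II receptor, was within the limit at 258 against 439.8 CPM, as were the ligand genes Tgfb1, Bmp2 and Bmp4. Acvrl1 and Eng were lower in every library, as was Id1, a target of this pathway, at 136 against 384 CPM. Smad7 and Id3 were also lower. In the Notch pathway, Hes1 was higher at 1069 CPM (1021 to 1119.8) against 525 CPM, Notch4 and Jag2 were lower at 7.10 and 8.88 CPM against 87.2 and 116 CPM, and Notch1 stood at 409 against 497 CPM, within the limit. Of 25 tested genes of the 3 pathways, 5 were higher (20% against 4.38% of all tested genes) and 7 lower (28% against 5.98%). Among these, Hes1 and Eng were under 2-fold within library 3 alone.

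Guidance genes differed in both directions. Of 20 tested, Sema3a, Sema3d and the netrin receptor Unc5b were higher, the last at 89.4 against 33.2 CPM. Robo4, a receptor that stabilises blood vessels, was lower at 96.8, 98.7 and 51.2 CPM against 307, 259.7 and 257 CPM. Sema7a stood at 14.2 against 226 CPM and Plxna2 at 138 against 366 CPM. With Nrp1, Sema3g and Slit3 these made 6 genes lower. Of the guidance list, 15% were higher and 30% lower, against 4.38% and 5.98% of all tested genes.

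Vasoactive genes were mostly lower or within the limit. Of 17 tested, 2 were higher (11.8% against 4.38% of all tested genes) and 6 lower (35.3% against 5.98%). Ece1, the enzyme that makes endothelin, stood at 1291, 1234 and 808 CPM against 480.0, 493 and 298 CPM, and was higher in each library. Adm, adrenomedullin, stood at 113, 24.7 and 185 CPM against 46.2, 73.2 and 39.7 CPM; it was higher in libraries 1 and 3 and lower in library 2. Its receptor genes Calcrl and Ramp2 stood at 258 and 292 CPM against 254 and 301 CPM. Ramp3, the other partner of CALCRL for adrenomedullin, was lower at 7.10 against 91.8 CPM, but had no UMI in venous-type blood endothelium. Edn1, Ednrb, Ptgs1, Apln and Aplnr were the other 5 lower, Apln under 2-fold within library 3. Nos3, endothelial nitric oxide synthase, stood at 32.3, 0 and 113 CPM against 162, 146 and 152 CPM.

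Scavenger, lipid and coagulation genes completed the lists on endothelial function. Of 15 tested scavenger and hyaluronan genes, Stab1 was higher, and Cd36, Scarb1, Clec1a and Clec14a were lower. These are 6.67% and 26.7% of the list, against 4.38% and 5.98% of all tested genes. Scarb1, the HDL receptor, stood at 0, 0 and 22.3 CPM against 351, 336 and 304 CPM. Cd36, a fatty acid uptake receptor, stood at 8.07, 0 and 123 CPM against 139.8, 99.4 and 816 CPM, so it was low outside library 3 in both classes. Of 19 lipid genes, 2 were higher (10.5%), Lpl among them, though neither reached 2-fold within library 3. Cd36, Scarb1, Pltp and Gpihbp1 were lower (21.1%). Pltp, phospholipid transfer protein, stood at 9.47 against 264 CPM. Gpihbp1, which holds lipoprotein lipase on capillary walls, stood at 198 CPM against 618 CPM in blood endothelium outside the venous type, but 56.0 CPM in the venous type, against which the direction was the opposite. Of 14 coagulation genes, Serpine2, Plat and F2r were higher (21.4%) and Entpd1 lower (7.14%, near the 5.98% of all tested genes). Serpine2, a thrombin inhibitor, stood at 250.1, 173 and 375 CPM against 29.2, 26.1 and 41.1 CPM, and Plat, tissue plasminogen activator, at 315, 123 and 386 CPM against 99.6, 76.7 and 102 CPM. Entpd1, which breaks down ATP on vessel walls, stood at 8.29 against 231 CPM.

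**Figure D5:**
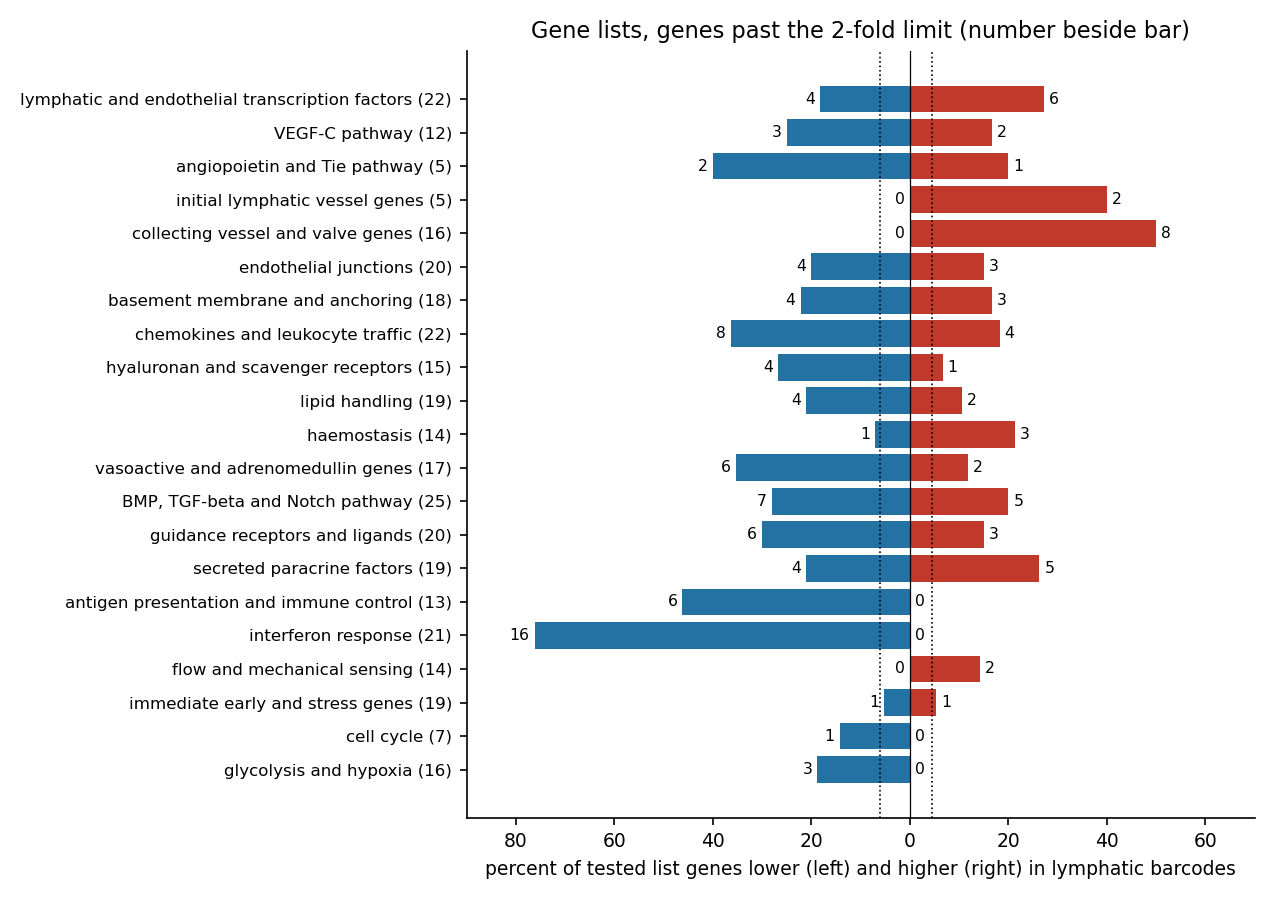
Share of tested genes of each list lower (left, blue) and higher (right, red) in lymphatic than in blood endothelial barcodes, with the number of genes beside each bar, the number tested in brackets and dotted lines at 5.98% and 4.38%, the shares of all tested genes. The interferon list had 16 of 21 genes lower and the valve list 8 of 16 higher.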

How the data were processed

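Single-cell 3′ libraries of pooled mouse gallbladders were analysed from 1 matrix of raw UMI counts, deposited by the authors, with 31053 genes and 27700 barcodes. Per the file headers the matrix came from Cell Ranger 6.1.1, and per the submitters' processing notes the build was GRCm38 (mm10); the annotation and the treatment of reads that match more than 1 gene are not given in the sources used here. The library number in each barcode is not tied to a sample by the files or labels, so no groups were compared, and libraries are unassigned samples, not replicates. The members and the gene lists were chosen with earlier results of these data known.

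Barcodes were gated by fixed rules without clustering, and UMIs were summed per class and library and scaled to CPM. 3′ UMI counts need no scaling by gene length. Ratios used an offset of 10 CPM, and genes of the gates were left out of the calls. Intervals are exact Poisson for levels and exact binomial (Clopper-Pearson) for shares, at 95%, and cover counting error only. Doublets were scored per library with Scrublet in scanpy 1.11.5 (threshold 0.25) and kept; leaving them out was an alternative. Sums and intervals were computed with numpy 2.4.6, pandas 2.3.3 and scipy 1.17.1 under Python 3.11.15. The comparison code was tested on simulated data. Gene positions are from GENCODE M21. Genes were named by rule: the rule's genes, the 4 highest of each of 21 lists, the 20 largest and 12 smallest ratios, and Vegfc, Vegfd and Ccr7 across classes. Other list members in the text, and Slc41a1, Spp1, Ttr and Dmbt1, were chosen after their values were seen. Alternatives varied the filters, the markers, the comparison class, scaling, offset, minimum UMIs, depth and libraries. Some genes of the lists are counted but not reported by name here.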

Additional observations from a re-analysis of the deposited data

How the results depend on the processing

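No paired analysis of the groups was possible because each group is 1 library and the library numbers are not tied to samples. Both endothelial classes occur in each library, but the calls used sums over the libraries and did not pair the classes by library. Only the direction within library 3 was also required. Nothing here is a replicated test. The lymphatic share of kept barcodes was 1.17% with 2 of the 6 markers, 0.700% with 4, 0.534% (139 barcodes) with 5, 0.676% with 2 vessel UMIs, and 18.5% of endothelial barcodes; it ranged from 0.213% to 1.36% with 1 library left out. The alternatives with 5 markers, with 1 direction in all 3 libraries, without the deepest barcode and with library 3 alone were chosen after seeing the data. Genes higher, 435, were 289 with no epithelial limit and 1287 against venous-type blood endothelium alone, where 352 of the 435 were shared. Genes lower, 594, were 1077 without library 3, where 34 members remained and only the pooled 2-fold limit applied; 40 of the 435 genes then had a negative ratio. Library 3 alone gave 340 higher, 305 shared, and 574 lower, 461 shared. Thinning to 1000 UMIs gave 328 higher and 713 lower, and scaling by the median ratio 379 and 684, with a shift of 0.079 on the log2 scale. The share of barcodes with valve genes was 2.62% after thinning and 2.94% without library 3. Of single-gene ratios, Gpihbp1 reversed against the venous type alone, to 1.65 from -1.43. The other ratios of genes named by the rule kept their direction, where counted as higher or lower, under each alternative run. Of the 93 other list genes counted as higher or lower, 5 turned: Alcam to -0.04 with 5 markers, Foxc1 to -0.27 without library 3 and -0.14 against the venous type, and against the venous type also Fbln5 to -0.05, Hk2 to 0.92 and Ramp3 to 0.77. Over all genes, 6 of the 435 and 50 of the 594 turned against the venous type, and 8 of the 435 with 5 markers. The cause of these changes was not tested. The 18 and 16 members limit libraries 1 and 2, and the median of 1831.5 UMIs per member limits detection most in library 2.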

Other observations

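Most genes of flow sensing and stress were within the limit. Of 14 tested genes of flow and mechanical sensing, 2 were higher in lymphatic barcodes (14.3% against 4.38% of all tested genes) and none lower. Cyr61 stood at 1589, 1209 and 3630.1 CPM against 961, 678 and 2222 CPM in blood endothelium, and Ankrd1 at 347, 123 and 59.0 CPM against 1.22, 5.23 and 1.39 CPM; both are targets of YAP and TAZ, and Cyr61 was under 2-fold within library 3 alone. Piezo1, a stretch-gated channel gene, stood at 125 against 118 CPM. Of 19 immediate early and heat shock genes, which tissue dissociation is known to induce, Fos was higher at 1283, 1456 and 6732 CPM against 1432, 1138 and 4532 CPM, and Ier3 was lower at 549, 444 and 281 CPM against 1182, 1586 and 728 CPM. Hspa1b stood at 6606, 6047 and 3251 CPM against 3222, 2763 and 2841 CPM, within the limit in the pooled sums. Within library 3 alone Fos was under 2-fold, and in library 1 it was lower in the members. Fos was highest in library 3 and Hspa1b lowest there, in the members. Of the immediate early and heat shock list, 5.26% were higher and 5.26% lower, near the 4.38% and 5.98% of all tested genes.

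Of 7 tested cell cycle genes, Pcna was lower (14.3% of the list against 5.98% of all tested genes) and none was higher. Pcna stood at 81.1 against 194 CPM but was under 2-fold within library 3. Mki67 and Top2a, made in dividing cells, stood at 4.14 and 4.74 CPM in the members. Of 16 genes of glycolysis and hypoxia, Epas1, Pfkfb3 and Hk2 were lower (18.8% against 5.98% of all tested genes) and none higher. Hk2 was under 2-fold within library 3 and at 0 in venous-type blood endothelium. Epas1, which encodes the hypoxia factor HIF-2α, stood at 129, 271 and 215 CPM against 900.5, 955 and 1069 CPM, and Hif1a at 208 against 285 CPM, within the limit.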
